A study of Mus musculus with 8 samples.

Results

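The genes described here are 6 inhibitors of cyclin-dependent kinases and Sfn, which codes for the 14-3-3 sigma protein of keratinocytes. They were read on mouse corneas that overexpress TGF-beta and on wildtype corneas. The members are all probe sets whose only annotated gene is Cdkn1a, Cdkn1b, Cdkn2a, Cdkn2b, Cdkn2c, Cdkn2d or Sfn. There were 9 such probe sets of these 7 genes, out of 45037 probe sets that are not array controls. Cdkn1a and Cdkn1b have 2 probe sets each and the other genes have 1. The series holds 8 one-colour Affymetrix arrays of total RNA from cornea. The 4 TGFB arrays come from mice in which TGF-beta is overexpressed, and the 4 wildtype arrays come from their littermates without it. The labels give no TGF-beta isoform, promoter, strain, sex, age or allele, and leave unsaid whether every array holds another animal, so the p-values rest on the spread among arrays, which may be technical in part. Arrays are numbered 1 to 4 within each group in record order, and equal numbers do not pair arrays.

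In epithelial cells TGF-beta is best known for stopping growth: SMAD proteins raise the inhibitors p15 (Cdkn2b) and p21 (Cdkn1a) and lower Myc and the Id genes. The INK4 inhibitors Cdkn2a, Cdkn2b, Cdkn2c and Cdkn2d bind CDK4 and CDK6 and keep them from joining D-type cyclins. The CIP/KIP inhibitors Cdkn1a (p21) and Cdkn1b (p27) bind cyclin and kinase complexes, among them those of CDK2. With the kinases blocked, the retinoblastoma protein stays bound to E2F factors and cells do not enter S phase. Cdkn1a and, in human cells, SFN are also targets of p53, and 14-3-3 sigma holds cyclin B and CDK1 complexes in the cytoplasm. The comparison asks whether this arrest program differs between the 2 groups of corneas.

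SMAD and Sp1 sites in promoters are the textbook route of TGF-beta to the inhibitors Cdkn1a and Cdkn2b. The promoters of the 3 genes with the widest differences between the groups, these 2 and Sfn, are therefore shown, Sfn for its difference only. Each promoter is the 300 bases from 250 before to 50 after an annotated start, from RefSeq on GRCm38.p6, printed 5′ to 3′ on the gene's strand. Capitals mark the SMAD box CAGAC or its reverse complement and the GC box GGGCGG, the Sp1 motif, or its reverse complement. Cdkn1a has 2 annotated starts, at chr17:29090729-29091028 and chr17:29093519-29093818 (both plus strand), Cdkn2b lies at chr4:89310983-89311282 (minus strand) and Sfn at chr4:133602119-133602418 (minus strand).
Cdkn1a, upstream start: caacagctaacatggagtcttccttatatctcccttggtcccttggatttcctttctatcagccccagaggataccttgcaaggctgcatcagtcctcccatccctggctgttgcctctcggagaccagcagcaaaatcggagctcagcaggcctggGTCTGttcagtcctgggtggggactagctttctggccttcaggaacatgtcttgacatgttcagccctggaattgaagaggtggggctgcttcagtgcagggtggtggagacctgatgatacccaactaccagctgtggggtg
Cdkn1a, downstream start: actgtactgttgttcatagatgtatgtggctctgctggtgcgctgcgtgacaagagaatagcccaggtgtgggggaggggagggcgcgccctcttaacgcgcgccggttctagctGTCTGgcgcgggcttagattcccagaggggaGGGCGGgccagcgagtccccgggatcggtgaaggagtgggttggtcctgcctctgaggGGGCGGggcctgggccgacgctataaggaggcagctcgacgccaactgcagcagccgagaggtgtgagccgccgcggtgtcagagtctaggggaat
Cdkn2b: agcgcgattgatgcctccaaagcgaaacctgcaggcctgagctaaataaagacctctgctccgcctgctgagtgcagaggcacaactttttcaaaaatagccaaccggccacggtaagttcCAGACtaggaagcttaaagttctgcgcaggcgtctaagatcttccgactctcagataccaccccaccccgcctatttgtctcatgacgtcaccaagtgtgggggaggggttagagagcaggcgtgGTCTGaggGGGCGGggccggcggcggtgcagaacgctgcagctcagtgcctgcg
Sfn: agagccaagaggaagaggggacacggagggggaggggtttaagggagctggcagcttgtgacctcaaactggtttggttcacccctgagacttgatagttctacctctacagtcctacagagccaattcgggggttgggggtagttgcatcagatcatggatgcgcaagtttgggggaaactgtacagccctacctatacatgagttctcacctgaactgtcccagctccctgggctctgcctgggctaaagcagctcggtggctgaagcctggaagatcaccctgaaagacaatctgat

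Both Cdkn1a windows held 1 SMAD box, and the downstream window also held 2 GC boxes. The upstream Cdkn1a window held 2 matches to the 10-base p53 motif, searched by name on either strand. This motif occurs as a pair in a full p53 response element, and the full element was not searched. The Cdkn2b window held 2 SMAD boxes, 1 GC box and 1 palindromic cyclic AMP response element, TGACGTCA, which contains the shorter GACGTC. The Sfn window held no match to any motif searched. Over all 32851 promoter windows of the table, 49.6% held a SMAD box, 35.7% a GC box, 8.36% the 10-base p53 motif and 1.79% the palindromic response element, so a SMAD box or GC box is common in windows of this length. All 7 genes were found in the table, with 10 windows. A SMAD box was present in 5 of them and a GC box in 7, while the palindrome GTCTAGAC (0.213% of all windows) and the TATA box TATAAA (13.6%) were in none. The median share of G and C was 61.15% in the member windows and 52.7% in all windows. The part of this share in the GC box count was not tested. Sequence matches describe these letters and show no binding.

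All values below are deposited linear signals or log2(signal + 16), as stated. A difference is TGFB minus wildtype on the log2(signal + 16) scale, which understates the change of dim probe sets. Each difference has its standard error (SE) from limma. The 2% trimmed mean of every array was 150.0, so the arrays were compared without further scaling. Median signals ran from 26.3 to 34.4. The arrays differed in tissue marker signals and in an RNA control, and whether neighbouring tissue was carried along was not tested. The cornified skin keratin Krt10 read 8494 to 11198 on TGFB 1, TGFB 2 and wildtype 2 and 139.8 to 409 on the other arrays, and the Gapdh control, whose ratio of 3' to 5' signal grows as RNA decays, gave a ratio of 6.41 on wildtype 4 and 2.19 to 4.31 elsewhere. The defining keratin of differentiated corneal epithelium, Krt12, was present on every array but low on TGFB 1 (289) and wildtype 4 (562), against 3008 to 5766 on the others. In such bulk samples, fewer cells of a type and less RNA per cell cannot be told apart.

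Sfn, Cdkn1a and Cdkn2b had higher means in TGFB corneas, while Cdkn1b, Cdkn2a, Cdkn2c and Cdkn2d showed differences close to 0. No member passed the threshold of a limma adjusted p under 0.05 over all 45037 probe sets, nor did any other probe set (0% called). At an unadjusted limma p under 0.05, 4 of the 9 member probe sets were higher in TGFB corneas, where 2.70% of all probe sets were, and 0 were lower, where 3.16% of all were. These 4 were the Sfn, the Cdkn2b and both Cdkn1a probe sets. Of the 9 members, 6 had a higher mean in TGFB corneas, where 51.6% of all probe sets did, and their median difference was 0.17, where the median of all probe sets was 0.0090. With 1 probe set per gene, 3 of the 7 genes were higher at the unadjusted threshold, against 2.65% of 18193 genes.

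**Figure D1:**
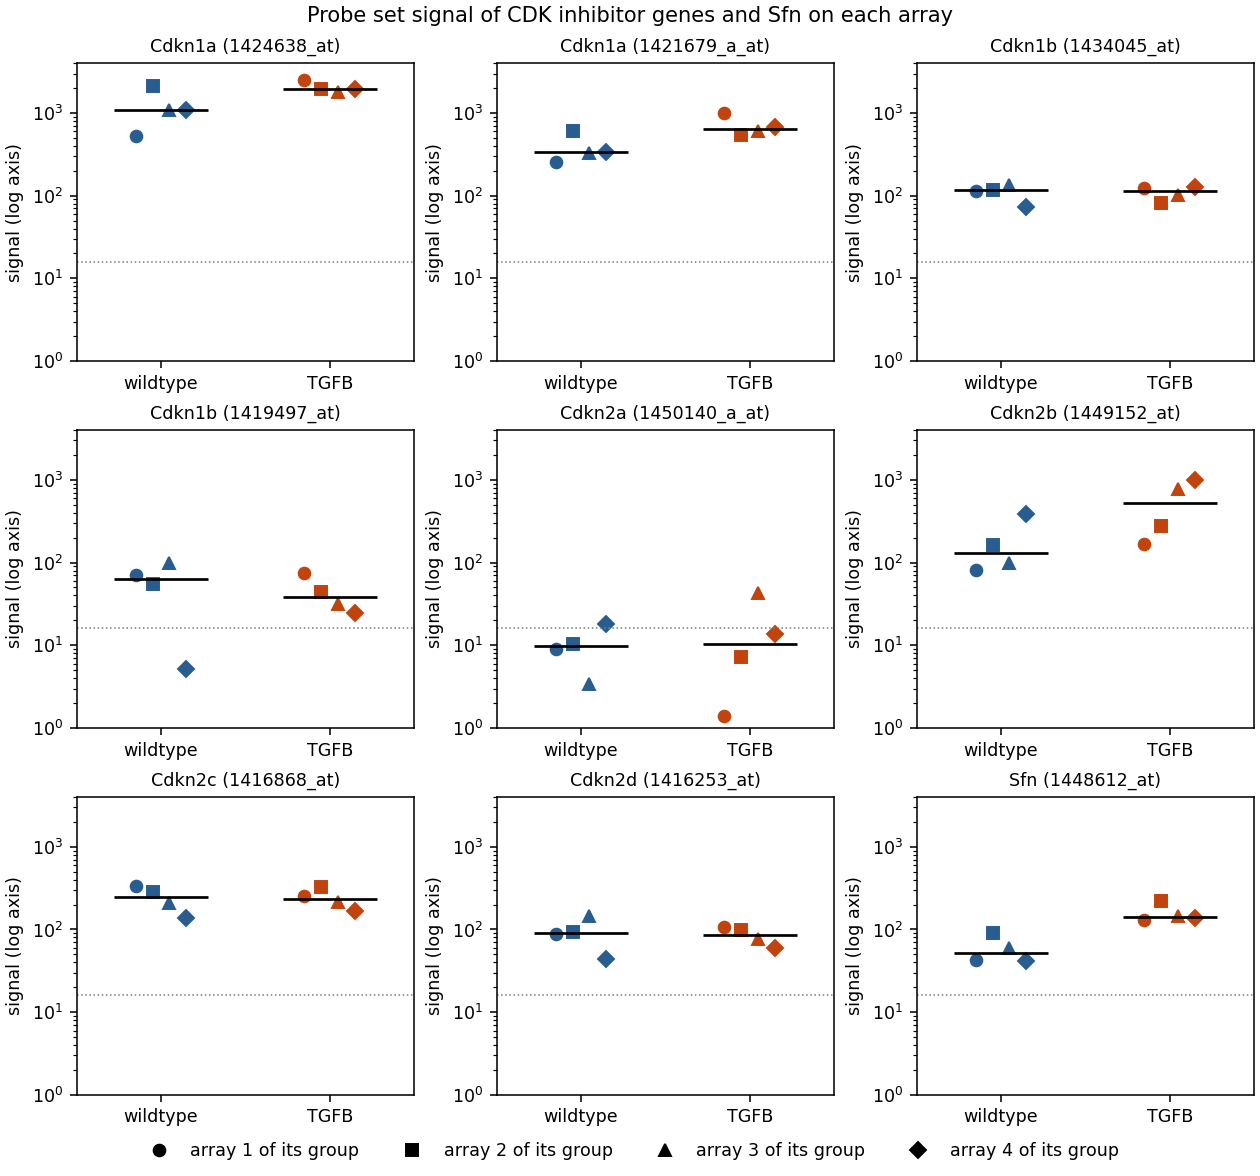
Signal of each member probe set (log axis) on the 4 wildtype (blue) and 4 TGFB (red) arrays. Each symbol is 1 array, black bars are group medians and the dotted line is a signal of 16. The Sfn groups do not overlap, wildtype 2 lies among the TGFB arrays for Cdkn1a, and Cdkn2b runs from 165.7 to 998 within TGFB.

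Sfn showed the clearest separation. Its signals were 128.9, 221.2, 147.1 and 136.5 on TGFB 1 to 4, against 43.1, 91.2, 59.5 and 41.2 on wildtype 1 to 4. Every TGFB array lay above every wildtype array, with wildtype 2 the nearest of its group and TGFB 2 the highest of all. Means were 7.42 ± 0.32 in TGFB and 6.18 ± 0.42 in wildtype corneas (SD, n = 4 each), a difference of 1.24 (SE 0.24, limma adjusted p = 0.822), or 2.36-fold on the offset scale with a 95% interval of 1.62 to 3.44. Sfn stood 21st of 45037 probe sets by p, and it was the only member whose groups did not overlap, a state reached in the higher direction by 1.47% of all probe sets. Leaving out single arrays moved the difference between 1.08 (without TGFB 2) and 1.43 (without wildtype 2). Without the 3 arrays with high Krt10, it was 1.31 (SE 0.21).

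Cdkn1a, the p21 inhibitor, gave like differences on its 2 probe sets. The brighter one, 1424638_at, read 2476, 1954, 1808 and 1960 on TGFB 1 to 4, against 522, 2102, 1082 and 1079 on wildtype 1 to 4. The TGFB arrays were tightly grouped, and wildtype 2 fell among them while the other 3 wildtype arrays lay below. Means were 11.00 ± 0.19 and 10.08 ± 0.81 (SD, n = 4 each), a difference of 0.92 (SE 0.35, limma adjusted p = 0.837). The other probe set, 1421679_a_at, read 1003, 542, 613 and 675 on TGFB 1 to 4, against 256.5, 609, 324.5 and 341.8 on wildtype 1 to 4. Here too wildtype 2 was the only wildtype array inside the TGFB range and wildtype 1 was the lowest. Its difference was 0.89 (SE 0.28, limma adjusted p = 0.837). Wildtype 1 and wildtype 2 moved the brighter probe set most: the difference was 0.59 without wildtype 1 and 1.25 without wildtype 2. For 1421679_a_at it ran from 0.72 without TGFB 1 to 1.13 without wildtype 2. Without the 3 arrays with high Krt10 the differences were 1.13 (SE 0.36) and 1.04 (SE 0.21).

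Cdkn2b, the p15 inhibitor that TGF-beta induces in cultured epithelial cells, had the widest mean difference and also the widest range over the 8 arrays (3.39 on the log2 scale). Its signals were 165.7, 278.1, 780 and 998 on TGFB 1 to 4, against 80.6, 162.0, 97.7 and 389.6 on wildtype 1 to 4. TGFB 3 and TGFB 4 stood above all other arrays, whereas TGFB 1 and TGFB 2 lay below wildtype 4, so the groups overlapped. Means were 8.83 ± 1.17 and 7.39 ± 0.93 (SD, n = 4 each), a difference of 1.44 (SE 0.61, limma adjusted p = 0.840) with a 95% interval of 0.058 to 2.82. The difference ran from 1.06 without TGFB 4 to 1.88 without TGFB 1. It was 1.87 without wildtype 4, the array with the high Gapdh ratio. TGFB 1 and TGFB 2, the TGFB arrays with low Cdkn2b, were those with high Krt10. Wildtype 2, the wildtype array with high Krt10, was not low in its group: it lay above wildtype 1 and wildtype 3. Without TGFB 1, TGFB 2 and wildtype 2 the difference was 2.45 (SE 0.62, limma adjusted p = 0.987), over 2 TGFB and 3 wildtype arrays. The part of cornified tissue in the Cdkn2b spread was not tested.

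Cdkn2a, the neighbour of Cdkn2b on chromosome 4, codes for p16 and, from another reading frame, p19ARF. Its probe set was dim, with signals of 1.41, 7.14, 42.7 and 13.6 on TGFB 1 to 4, against 8.95, 10.4, 3.40 and 18.3 on wildtype 1 to 4. It lay below 16 on 6 of the 8 arrays, and the highest reading was that of TGFB 3. The difference was 0.17 (SE 0.35, 95% interval -0.62 to 0.96), and it changed sign without TGFB 3 (-0.17). Without TGFB 1, TGFB 2 and wildtype 2, the arrays with high Krt10, the difference was 0.71 (SE 0.38). A probe set this dim limits what the offset scale can show.

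Cdkn2c, the p18 inhibitor, had signals of 250.6, 325.6, 212.5 and 166.0 on TGFB 1 to 4, against 336.0, 285.8, 208.6 and 137.3 on wildtype 1 to 4. The groups overlapped almost wholly, with wildtype 1 highest and wildtype 4 lowest. The difference was 0.013 (SE 0.29, 95% interval -0.63 to 0.66, limma adjusted p = 0.997). Cdkn2d, the p19 inhibitor of the INK4 family, had signals of 106.9, 97.6, 76.0 and 59.8 on TGFB 1 to 4, against 88.7, 93.8, 145.7 and 43.7 on wildtype 1 to 4. Both the highest and the lowest reading were wildtype, and the difference was -0.048 (SE 0.29, 95% interval -0.71 to 0.61, limma adjusted p = 0.991). These intervals leave room for a change of up to about 0.7 on the log2 scale in either direction.

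Cdkn1b, the p27 inhibitor of resting cells, was read by 2 probe sets. The brighter, 1434045_at, gave 122.8, 81.9, 102.4 and 126.1 on TGFB 1 to 4, against 113.9, 118.6, 135.3 and 73.7 on wildtype 1 to 4. Its groups overlapped, and its difference of -0.013 (SE 0.20, 95% interval -0.46 to 0.44) was the most narrowly bounded of the members. The dimmer, 1419497_at, gave 75.6, 44.5, 31.8 and 24.8 on TGFB 1 to 4, against 70.7, 55.5, 98.9 and 5.10 on wildtype 1 to 4, a difference of -0.12 (SE 0.49, 95% interval -1.23 to 0.99). Wildtype 4 was the lowest array for both Cdkn1b probe sets, Cdkn2c, Cdkn2d and Sfn, and the highest wildtype array for Cdkn2b. Without it, the dimmer Cdkn1b probe set had a difference of -0.64 (SE 0.29, limma adjusted p = 0.449). The part of RNA decay in these readings was not tested.

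**Figure D2:**
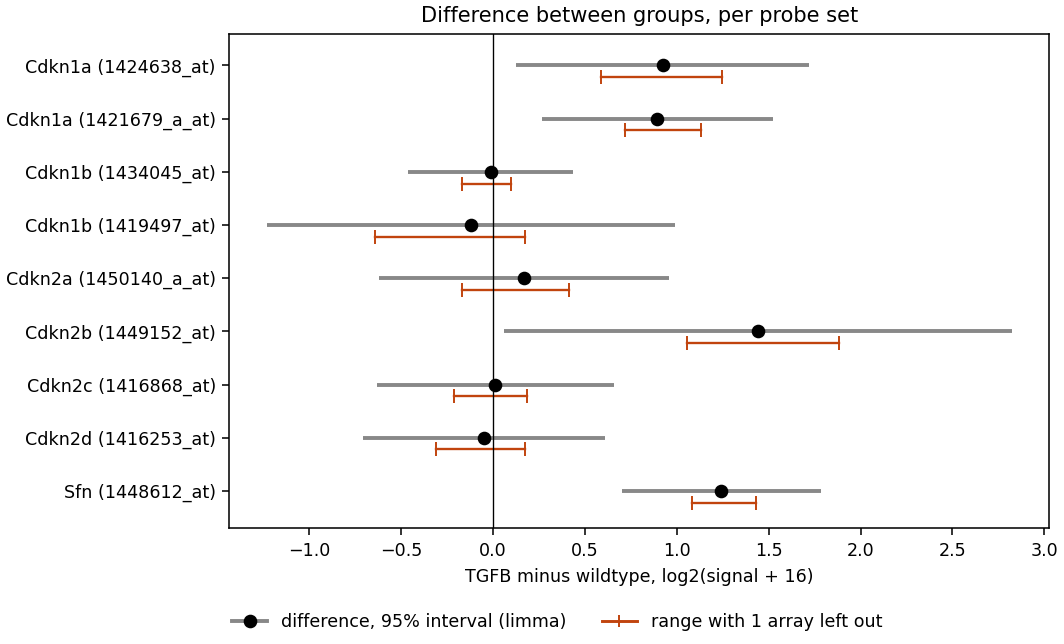
TGFB minus wildtype on the log2(signal + 16) scale for the 9 member probe sets. Black points are limma differences over 8 arrays, grey bars their 95% intervals and red bars the range when each array is left out in turn. The intervals of Sfn, Cdkn2b and both Cdkn1a probe sets lie above 0, and those of the others span it.

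Sfn is a gene of stratified epithelium, and the profile of Cdkn1a over the arrays lay close to those of epithelial genes, as given further on. The members were therefore set beside a list of basal and suprabasal epithelial genes. Of its 14 measured genes, 13 had a higher mean in TGFB corneas, where 47.4% of all genes did. At the unadjusted threshold 8 were higher (2.65% of all genes), and the median difference was 0.76. The summed signal of the list ran from 28062 to 35135 over the TGFB arrays and from 15856 to 31858 over the wildtype arrays, and no more than 1 of its genes lay below 16 on any array. Its mean was 9.08, 9.40 and 9.17 on wildtype 1, 3 and 4, 10.29 on wildtype 2 and 10.18 to 10.65 on the TGFB arrays. Wildtype 2, the wildtype array with the highest list mean, was also the wildtype array highest in Sfn and Cdkn1a. With the list mean as a covariate, the Sfn difference was 0.57 (SE 0.27, limma adjusted p = 0.967). For Cdkn1a it was -0.13 (SE 0.36) on 1424638_at and 0.18 (SE 0.34) on 1421679_a_at, and for Cdkn2b 2.04 (SE 0.99). None of the 9 members was at an unadjusted p under 0.05 in that fit. The list holds Krt14 and Epcam, the genes nearest to Cdkn1a in profile over these same arrays. For Cdkn1a the fit is therefore no separate check. The list mean itself differed by 0.91 between the groups, and with 8 arrays the covariate and the group cannot be told apart cleanly.

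**Figure D3:**
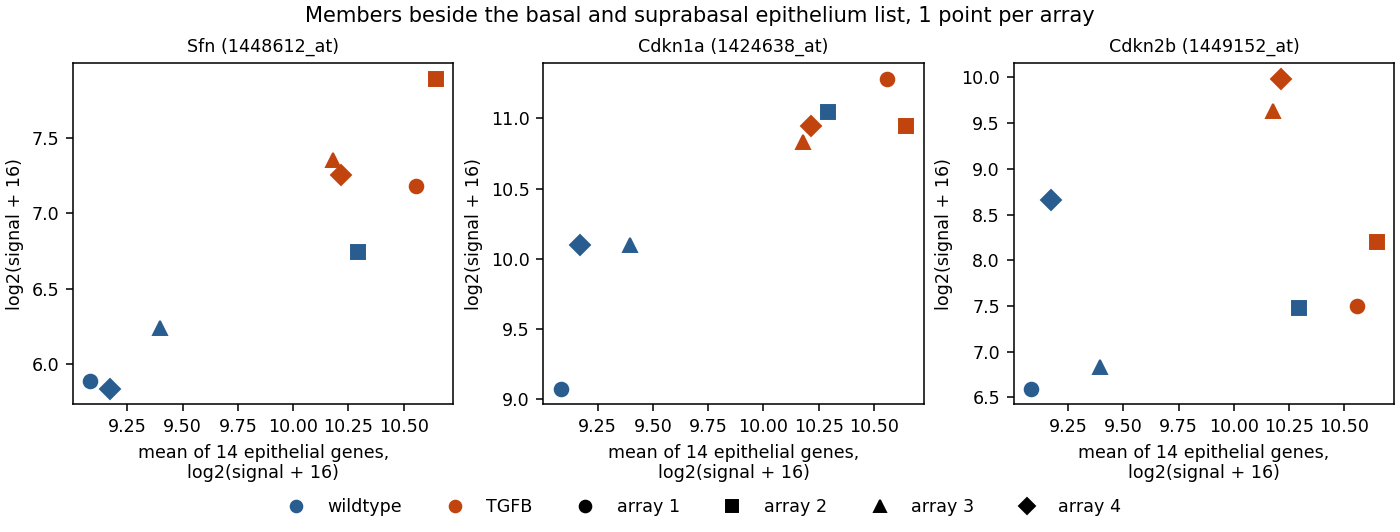
The log2(signal + 16) of Sfn, Cdkn1a (1424638_at) and Cdkn2b against the mean of 14 basal and suprabasal epithelial genes. Each point is 1 array (blue wildtype, red TGFB, symbols number the arrays within a group), and the other member probe sets are not drawn. The 3 wildtype arrays with a low list mean are lowest in Sfn and Cdkn1a, and wildtype 2 lies with the TGFB arrays on the list. Cdkn2b is highest on TGFB 3 and TGFB 4, whose list means are 10.18 and 10.21.

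Markers of other tissues were summed over each array in the same way, and none passed the adjusted threshold. Among all genes, 47.4% had a higher mean in TGFB corneas. Pigment cell markers had a lower mean in TGFB corneas for 9 of 9 genes, with 6 lower at the unadjusted threshold (4.41% of all genes) and a summed signal of 3444 to 15406 over the TGFB arrays and 14999 to 35393 over the wildtype arrays. Keratocyte markers were lower in mean for 8 of 8 genes (18516 and 17805 on TGFB 1 and TGFB 2, 22653 and 24384 on TGFB 3 and TGFB 4, and 22454 to 38887 in wildtype arrays, summed). Of these 8, 2 were lower at the unadjusted threshold (4.41% of all genes) and 1 was lower without overlap (2.45% of all genes). The sum for cornified epidermis ran from 915 to 47967 over the TGFB arrays and from 694 to 27874 over the wildtype arrays. Its genes had a higher mean in TGFB corneas for 7 of 7, with a median difference of 1.63 and 0 at the unadjusted threshold. Lens markers summed to 1874 to 32707 and 3687 to 50098. They were lower in mean in TGFB corneas for 15 of 15 genes (median -0.95), with 0 at the unadjusted threshold. Of the 10 corneal epithelium markers, among them Krt5 and Krt14 of the basal list, 3 had a higher mean, and the median difference was -0.41. At the unadjusted threshold 1 was higher and 2 lower, against 2.65% and 4.41% of all genes. These markers summed to 16724 to 21863 over the TGFB arrays and 12938 to 25619 over the wildtype arrays. Retina markers summed to 220 to 846 and 496 to 6549, and 9 of 9 had a lower mean (median -0.95). Of these 9, 3 were lower at the unadjusted threshold, against 4.41% of all genes. Skeletal muscle markers summed to 15673 to 26621 and 20728 to 27261, with 10 of 10 lower in mean and 1 lower at that threshold. Leukocyte markers summed to 1909 to 2876 and 2060 to 4110, with 7 of 9 higher in mean and 1 lower at that threshold. Vessel endothelium markers summed to 833 to 1246 and 690 to 1660, with 6 of 8 lower in mean and 0 at that threshold. The summed ranges of the 2 groups overlap for each of these lists. Signals of exactly 0 occurred for none of these markers. The part of these tissues in the members' differences was not tested.

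The genes whose profile over the 8 arrays was most like each member were found by the root mean square difference between profiles centred on their own means, among 10815 other genes with a mean of at least 6 (10816 for Cdkn2a). For Sfn these were the laminin-332 chain gene Lama3 (0.16), Lypd6b (0.20) and the epithelial membrane protease gene St14 (0.22), where the median over all genes was 0.76. The differences between groups of these 3 genes were 1.22 (SE 0.24), 1.03 (SE 0.26) and 0.87 (SE 0.22). For Cdkn1a they were the basal keratin Krt14 (0.29), the adhesion molecule Epcam (0.30) and the transcription factor Nfe2l3 (0.32), against a median of 0.75. Krt14 read 4872, 5045, 4610 and 4419 on TGFB 1 to 4, against 1274, 3408, 1742 and 3058 on wildtype 1 to 4, so wildtype 1 was lowest and wildtype 2 highest of its group, as for Cdkn1a.

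Cdkn2b had other neighbours. The closest was Matn3, a matrilin of cartilage matrix, at 0.32, followed by the potassium channel Kcnj15 (0.47) and the kinesin Kif26b (0.48), against a median of 1.23. Matn3 read 30.1, 80.6, 232.1 and 216.9 on TGFB 1 to 4, against 27.3, 26.5, 20.3 and 145.9 on wildtype 1 to 4. As for Cdkn2b, TGFB 3, TGFB 4 and wildtype 4 were the 3 highest arrays. The closest genes to Cdkn2c were Grb2, Etfa and Lcmt2 (0.086 to 0.11). Those closest to Cdkn2d were the polymerase subunit Pola2, the cohesin subunit Smc3 and Hirip3 (0.14 to 0.16). For the dim Cdkn2a they were Tmem200a, Zfp991 and Srp9 (0.22 each). The brighter Cdkn1b probe set, 1434045_at, varied by less than 1 over the arrays and was not matched. The dimmer one was not used for matching, which took the brightest probe set of each gene.

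The kinases and cyclins that the inhibitors act on, with the RB and E2F genes, had differences on either side of 0. Of 18 measured genes, 7 had a higher and 11 a lower mean in TGFB corneas, where 47.4% of all genes had a higher one. None passed the adjusted threshold, 1 was higher and 0 lower at the unadjusted one (2.65% and 4.41% of all genes), and the median difference was -0.038, where that of all genes was -0.014. With 1 array left out the list's median ran from -0.21 without wildtype 4 and -0.19 without TGFB 2 to 0.092 without TGFB 3 and 0.10 without wildtype 2, so its sign rests on single arrays. The 4 with the smallest p were E2f2 (0.70, SE 0.30), Cdk1 (-0.43, SE 0.26), E2f5 (-0.74, SE 0.49) and E2f4 (0.24, SE 0.19). The D-cyclin partner Cdk4 had a difference of -0.10 (SE 0.44), Ccnd1 of 0.13 (SE 0.39) and the retinoblastoma gene Rb1 of 0.25 (SE 0.24). Cdk4 was lowest on wildtype 4 (554) and TGFB 3 (643) and read 1141 to 1963 on the other arrays.

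Genes of cell division, a readout of arrest, had differences on either side of 0. Of 20 genes, 9 had a higher and 11 a lower mean, where 47.4% of all genes had a higher one. None passed the adjusted threshold, and 0 were higher and 0 lower at the unadjusted one, against 2.65% and 4.41% of all genes. A count of 0 among 20 is near those shares. The median was -0.053. Mcm4 (0.25, SE 0.16), Tyms (0.25, SE 0.20), Birc5 (-0.35, SE 0.31) and Kif11 (0.20, SE 0.20) had the smallest p. The proliferation marker Mki67, chosen after its values were seen, read 1077, 1946, 935 and 886 on TGFB 1 to 4, against 899, 1999, 1681 and 850 on wildtype 1 to 4, a difference of -0.14 (SE 0.35). The arrays high in Mki67 were TGFB 2, wildtype 2 and wildtype 3, which belong to both groups. The median of this list was -0.26 without wildtype 4 and 0.13 without wildtype 2, so its sign rests on single arrays.

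The wider TGF-beta cytostatic program, with Myc, the Id genes and SMADs, had 6 higher and 8 lower means among 14 genes, where 47.4% of all genes had a higher mean. At the unadjusted threshold 2 were higher and 1 lower, against 2.65% and 4.41% of all genes. Id3, which TGF-beta lowers in growth-arrested epithelial cells, read 1060, 1101, 925 and 1076 on TGFB 1 to 4, against 2182, 1231, 1620 and 1177 on wildtype 1 to 4, with no overlap (-0.53, SE 0.20; lower without overlap in 2.45% of all genes). Id1 (-0.25, SE 0.26) and Id2 (-0.15, SE 0.17), chosen after their values were seen, had differences within their error. Myc, which TGF-beta lowers in cultured keratinocytes, read 196.0, 270.4, 124.8 and 132.5 on TGFB 1 to 4, against 125.2, 150.7, 98.8 and 86.8 on wildtype 1 to 4, a difference of 0.55 (SE 0.26). Its higher readings were those of TGFB 1 and TGFB 2. The stress gene Gadd45b had a difference of 0.55 (SE 0.21) and Smad2 one of 0.45 (SE 0.19). Across these genes the limma adjusted p was between 0.678 and 0.882.

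Among p53 target genes and p53 relatives, 14 of 18 had a higher mean (47.4% of all genes). At the unadjusted threshold 3 were higher and 0 lower, against 2.65% and 4.41% of all genes. The median was 0.18, and it was 0.054 without TGFB 3 and 0.30 without TGFB 2. The exonuclease gene Aen read 258.1, 298.8, 325.7 and 233.9 on TGFB 1 to 4, against 208.4, 138.3, 188.5 and 152.5 on wildtype 1 to 4, with no overlap (0.66, SE 0.17, limma adjusted p = 0.623; higher without overlap in 1.48% of all genes). The apoptosis gene Pmaip1 had a difference of 1.30 (SE 0.52), the desmosome-linked Perp 0.66 (SE 0.28) and the stress sensor Sesn2 0.33 (SE 0.17). Pmaip1 was dim and its groups overlapped. It read 50.9, 27.1, 166.2 and 133.4 on TGFB 1 to 4, against 2.03, 34.3, 22.2 and 45.3 on wildtype 1 to 4. The epithelial p53 relative Trp63 had 0.88 (SE 0.61). Perp and Trp63 also stand in the epithelial list. Mdm2, a p53 feedback target chosen after its values were seen, had 0.21 (SE 0.19).

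Genes that set p27 turnover or regulate the INK4 locus had 0 of 16 past either threshold. At the unadjusted one, 2.65% of all genes were higher and 4.41% lower, so a count of 0 among 16 is near those shares. The list's median was -0.032, and it was 0.0039 without wildtype 2 and 0.014 without wildtype 3. Their smallest p belonged to the Polycomb subunit Suz12 (0.30, SE 0.15), the repressor Tbx2 (-0.39, SE 0.20), the Polycomb gene Bmi1 (0.29, SE 0.17) and the ubiquitin ligase subunit Skp1 (-0.17, SE 0.13). Of the 6 other 14-3-3 genes, only Ywhaz was higher at the unadjusted threshold (0.36, SE 0.13), against 2.65% of all genes. Its groups did not overlap, a state reached in the higher direction by 1.48% of all genes. The next were Ywhab (-0.075, SE 0.14), Ywhag (0.14, SE 0.27) and Ywhah (0.087, SE 0.21). No gene of these 6 lists passed the limma adjusted threshold.

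**Figure D4:**
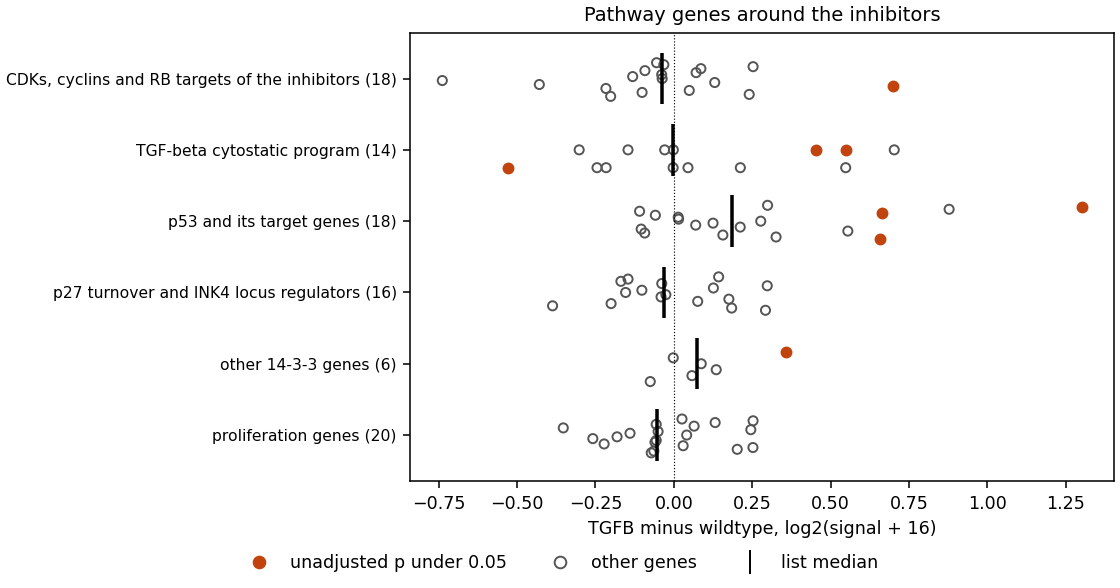
TGFB minus wildtype on the log2(signal + 16) scale for the genes of 6 pathway lists (number measured in brackets), 1 point per gene, with the list median as a bar. Filled points are at an unadjusted p under 0.05. The medians run from -0.053 for proliferation genes to 0.18 for p53 target genes, and no gene passed the adjusted threshold.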

How the data were processed

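Total RNA of mouse cornea was read on 8 arrays, 4 per group. The deposited values are linear probe set intensities, whose making is not given in the sources used here. Log2(intensity + 16) was tested with limma 3.58.1 in R 4.3.3 (lmFit, eBayes without trend, 9.22 total degrees of freedom) over 45037 probe sets, without 64 controls, with Benjamini-Hochberg adjustment. The number of arrays limits the precision. A 2016 platform annotation gave 1 symbol to 34945 probe sets, several to 932 and none to 9160, and 34741 were matched by Entrez ID to RefSeq symbols (GRCm38.p6). Pathway and marker genes were represented by their brightest probe set (18193 genes). The rule for names took every member, up to 4 genes of smallest p per pathway list, Trp53 (not analysed here), Trp63, Myc, Ccnd1, Cdk4, Rb1, Krt14 and the 3 nearest profiles of members varying by at least 1. Members, lists, Krt10, Krt12 and the Gapdh ratio were chosen with earlier results of these data known. Alternatives changed offset, scaling, filter, probe set choice, variance prior, array weights, threshold and arrays. The fit was tested on simulated data. Figures were drawn with matplotlib 3.10.9.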

Additional observations from a re-analysis of the deposited data

Results flagged for a closer look

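None of the 18 member groups of 4 arrays held an array far from the other 3 by Dixon's gap test. Among the 46 other named genes, 4 of 92 groups did, where chance gives about 1 in 20. On the log2(signal + 16) scale, Gadd45b read 8.20 on TGFB 3, below 8.70 to 8.74 on the other TGFB arrays. Kif11 read 7.47 on TGFB 2, above 6.94 to 7.00. St14, one of the genes nearest to Sfn, read 8.71 on TGFB 2, above 8.32 to 8.36. Matn3, the gene nearest to Cdkn2b, read 7.34 on wildtype 4, above 5.18 to 5.44 on the other wildtype arrays.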

How the results depend on the processing

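No member passed the limma adjusted threshold in any of 22 other settings, 20 of them planned, where adjusted p ran from 0.208 to 1.00. Of 175 member differences in these settings, 153 kept their sign, and 22 changed it: 1 of Cdkn1a, and the others of Cdkn1b, Cdkn2a, Cdkn2c and Cdkn2d, whose differences lie close to 0. Differences with 1 array left out ran from -0.17 to 0.096 (Cdkn1b 1434045_at), -0.64 to 0.17 (Cdkn1b 1419497_at), -0.17 to 0.41 (Cdkn2a), -0.21 to 0.19 (Cdkn2c) and -0.31 to 0.17 (Cdkn2d). Signs also changed with an offset of 1 (Cdkn1b 1419497_at, 0.063), median centring (Cdkn2c, -0.016), array weights (Cdkn2c, -0.16), without the 3 arrays with high Krt10 (Cdkn1b 1434045_at, 0.10; Cdkn2c, -0.17) and with the epithelial covariate (Cdkn1a 1424638_at, -0.13; Cdkn2c, -0.40). The last 2 settings were chosen after seeing the data. The cause was not tested.

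Member probe sets higher at an unadjusted p under 0.05 numbered 2 to 4 with 1 array left out (2 without wildtype 1 or wildtype 3), 3 or 4 in other settings, and 0 with the epithelial covariate. Sfn stayed under that level in 19 of 20 settings, Cdkn1a 1421679_a_at in 17 of 18, Cdkn1a 1424638_at in 15 of 20 and Cdkn2b in 11 of 20. Over all probe sets, 0 to 2 passed the adjusted threshold with 1 array left out, the 2 without wildtype 4, both of Ces1d. Scaling moved the median of all probe sets by under 0.1. Dim probe sets such as Cdkn2a are limited by the offset. No paired analysis was possible because the replicate numbers were given in record order and pair no arrays.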
